A study of Mus musculus with 4 samples.

Results

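The heat shock and unfolded protein response genes described here are a chosen list of 43 genes for chaperones, folding enzymes, stress sensors and stress-response transcription factors. Each gene was represented by its brightest probe set among those naming a single gene, judged by the mean of the 4 arrays. Such a probe set was found for 41 of the 43, among 18194 genes in all. Hsf1, the heat shock transcription factor, and Hsp90ab1, the constitutive cytosolic Hsp90, had no match and are not analysed here. A level is the log2 RMA value of a probe set, and log2 6 on at least 1 array was used as the floor for testing. It was reached by 39 of the 41 genes. Hspb8 (a small heat shock protein, 4.37 to 4.63) and Chac1 (which degrades glutathione and is induced by Atf4, 3.42 to 5.34) lay below it on all 4 arrays.

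The cells were mouse bone marrow cells grown for 5 days with M-CSF, the growth factor that drives macrophage formation. The 4 groups were Jmjd3-/- with LPS, Jmjd3-/- unstimulated, wild type with LPS and wild type unstimulated, and each had 1 Affymetrix array. LPS, a bacterial cell wall component sensed through Toll-like receptors, was given at 100 ng/ml for 4 h. Jmjd3 is the product of Kdm6b and removes methyl groups from histone H3 lysine 27. The labels name no strain, age or number of mice, no deleted part of the gene and no pooling of animals.

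Heat shock proteins are chaperones that bind unfolded chains in the cytosol, nucleus and mitochondria, and many are induced through heat shock elements in their promoters. The unfolded protein response does the same work for the endoplasmic reticulum (ER): the membrane sensors encoded by Ern1 (IRE1), Eif2ak3 (PERK) and Atf6 raise the output of ER chaperones and of the machinery that removes misfolded proteins. PERK also phosphorylates the translation factor eIF2, which favours synthesis of Atf4 and its targets, the integrated stress response. In macrophages, Toll-like receptor signalling is known to engage IRE1 and Xbp1.

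Several promoters of the ER genes hold the ER stress element, read here as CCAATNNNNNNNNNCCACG on either strand. RefSeq promoters (GRCm38.p6), each 250 bases before to 50 bases after a start, were found for 35 of the 43 genes. The element was present in 7 of these 35 genes, against 0.137% of 27025 genes in the whole table. The matches are shown because they are a feature of these genes that the measured levels do not contain. Capitals mark the element, each window reads 5′ to 3′ on the strand of its gene, and the number gives its first base relative to the start.
Hspa5, chr2:34772005-34772063, + strand, -65: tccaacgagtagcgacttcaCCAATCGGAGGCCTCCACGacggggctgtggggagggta
Hsp90b1, chr10:86705618-86705676, - strand, -212: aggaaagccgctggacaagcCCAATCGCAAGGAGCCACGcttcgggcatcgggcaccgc
Hsp90b1, chr10:86705513-86705571, - strand, -107, element reversed: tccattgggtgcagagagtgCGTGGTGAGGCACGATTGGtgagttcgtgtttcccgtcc
Calr, chr8:84847055-84847113, - strand, -162, element reversed: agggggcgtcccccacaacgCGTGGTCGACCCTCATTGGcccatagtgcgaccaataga
Canx, chr11:50325780-50325838, - strand, -145: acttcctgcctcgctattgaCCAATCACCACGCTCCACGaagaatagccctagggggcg
Pdia6, chr12:17266471-17266529, + strand, -98: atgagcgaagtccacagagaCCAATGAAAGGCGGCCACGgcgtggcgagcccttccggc
Dnajc3, chr14:118937807-118937865, + strand, -105: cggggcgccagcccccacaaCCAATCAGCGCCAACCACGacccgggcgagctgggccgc
Syvn1, chr19:6046512-6046570, + strand, -44: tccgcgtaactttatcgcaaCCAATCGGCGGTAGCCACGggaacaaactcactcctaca

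The heat shock element was read as GAANNTTC, or more strictly as 3 units, GAANNTTCNNGAA, on either strand. The shorter form lies within the longer one. It occurred in 10 of the 35 genes (Asns, Bag3, Dnaja1, Hspa1a, Hspa1b, Hspb1, Hspb8, Hspd1, Hspe1 and Hsph1), against 9.04% of all genes in the table. The longer form occurred in 3 (Hspd1, Hspe1 and Hsph1), against 0.662%. Hspd1 and Hspe1 lie head to head, so their match is the same stretch of DNA. The windows of Hspe1 and Hspb1 are shown because both genes return in the results, and capitals mark 1 match in each. Left in lower case are a further match of the shorter form at -97 in Hspb1 and, partly, an overlapping match of the longer form on the other strand at -89 in Hspe1.
Hspe1, chr1:55088044-55088096, + strand, -84: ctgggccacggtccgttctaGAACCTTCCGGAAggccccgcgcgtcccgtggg
Hspb1, chr5:135887782-135887829, + strand, -117: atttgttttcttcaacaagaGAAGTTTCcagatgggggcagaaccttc
The amino acid response element, read as TGATGNAA on either strand, was present in Asns, Chac1, Herpud1 and Trib3, against 4.51% of all genes in the table. These are matches of letters and do not show that a factor was bound.

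On the arrays as a whole, medians lay between 4.15 and 4.24, and 32.1% to 34.5% of probe sets reached the floor. All 7 matched macrophage markers passed the floor on every array. Markers of other cells differed with genotype. All 11 granulocyte and precursor markers reached the floor on both Jmjd3-/- arrays, against 6 on the wild-type array with LPS and 3 on the unstimulated one. For 11 stromal cell markers these counts, with LPS and unstimulated, were 10 and 9 in Jmjd3-/-, against 4 and 2 in wild type. Of 5 dendritic cell markers, 2 and 1 passed in Jmjd3-/-, against 3 and 2 in wild type. The brightest of 3 Kdm6b probe sets read 10.82 and 9.82 in Jmjd3-/- with LPS and unstimulated, against 11.23 and 10.33 in wild type. It is of a less specific class, and the others are not given here. Since the deleted part is unknown, it does not check the labels.

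**Figure D1:**
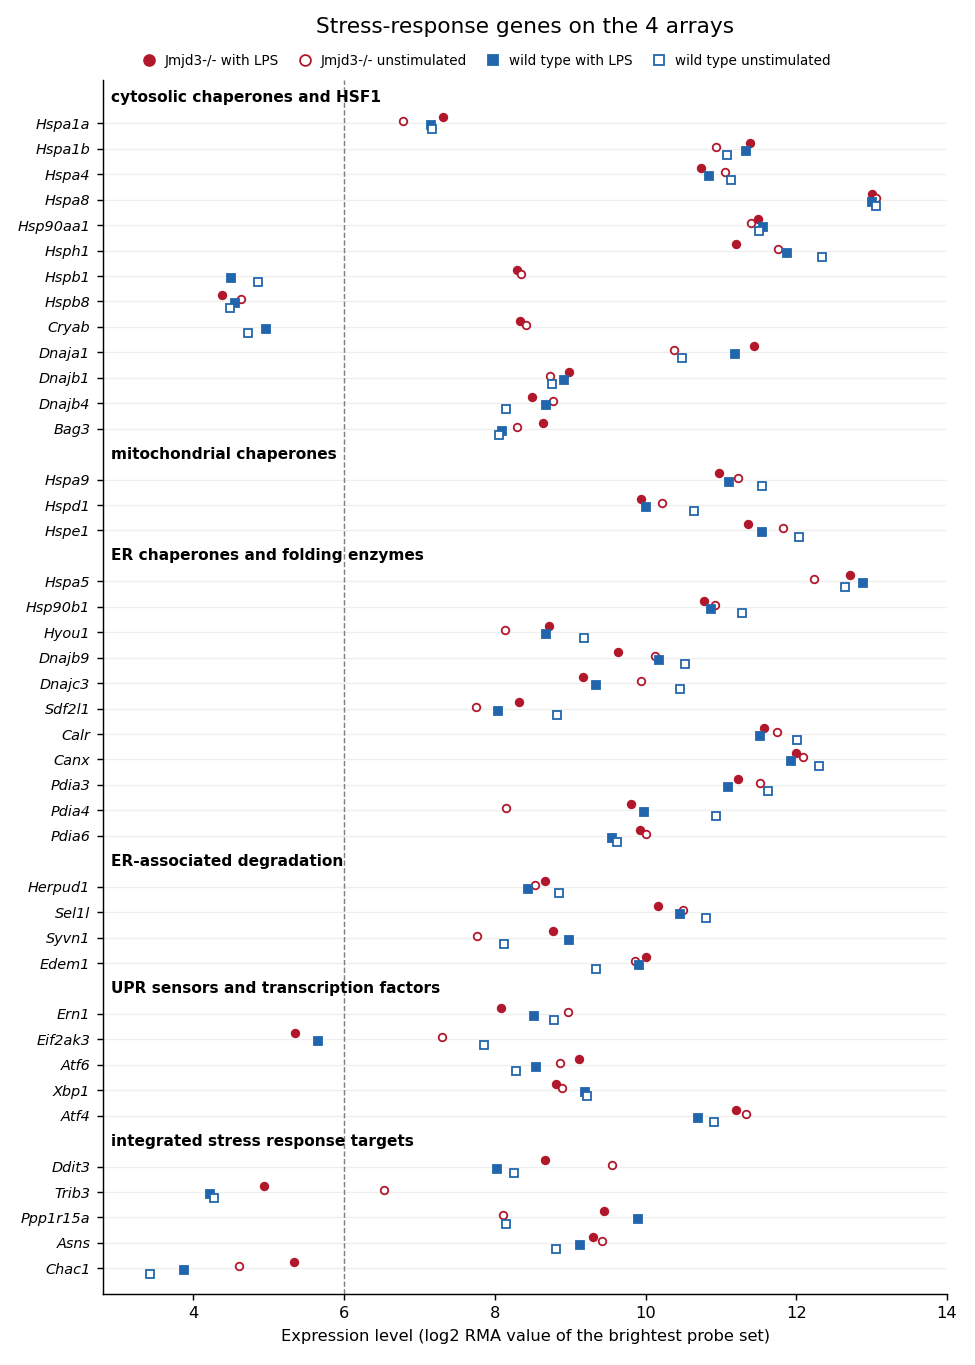
Levels of the 41 matched genes on each of the 4 arrays, as the log2 RMA value of the brightest probe set, grouped by role. Filled symbols are LPS arrays, open symbols are unstimulated arrays, and the dashed line is the floor of log2 6. Hspb1 and Cryab stand near 8 in Jmjd3-/- and below 5 in wild type.

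The LPS effect was first taken over both genotypes. Of the 39 genes tested, 3 rose and 4 fell with LPS. The risers were Dnaja1, Syvn1 and Ppp1r15a. Those that fell were Eif2ak3, Dnajc3, Hsph1 and Hspe1. The remaining 32 did not pass the test, which was an additive limma model of genotype and LPS on all 4 arrays with Benjamini-Hochberg adjustment over 9386 genes. The risers were 7.69% of the genes, where 11.2% of all genes tested rose. Those that fell were 10.3%, where 18.9% of all genes fell. Both shares lay below the background. The median LPS effect was -0.10 over the 39 genes and -0.22 over all genes. Having 1 array per group, the model has 1 residual degree of freedom, and its residual measures only how far the LPS response differed between the genotypes. The standard errors and p-values also draw on other genes of similar level, with 3.84 prior degrees of freedom. Neither source measures the spread between replicates.

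Ppp1r15a encodes GADD34, the phosphatase subunit that reverses eIF2 phosphorylation. Its level was 9.44 with LPS and 8.10 unstimulated in Jmjd3-/-, and 9.89 with LPS and 8.15 unstimulated in wild type. Both LPS arrays lay above both unstimulated arrays. The effect was 1.54 ± 0.20 (SE, limma adjusted p = 0.0104), and the LPS differences of 1.34 in Jmjd3-/- and 1.75 in wild type are 2.53-fold and 3.36-fold.

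Dnaja1, an Hsp40 cochaperone of the cytosolic Hsp70 proteins, read 11.43 with LPS and 10.38 unstimulated in Jmjd3-/-, and 11.18 with LPS and 10.49 unstimulated in wild type. The LPS arrays were again the higher pair. Its effect was 0.87 ± 0.17 (SE, limma adjusted p = 0.0229). The dimmer probe sets of Dnaja1 gave LPS differences of 1.17 and 1.19 in Jmjd3-/-, and 0.79 and 0.69 in wild type.

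Syvn1 encodes HRD1, the ubiquitin ligase of ER-associated degradation, and carries the ER stress element shown above. It read 8.76 with LPS and 7.77 unstimulated in Jmjd3-/-, and 8.99 with LPS and 8.12 unstimulated in wild type. The LPS arrays lay above the unstimulated arrays in both genotypes, with an effect of 0.93 ± 0.18 (SE, limma adjusted p = 0.0242). The 3 other genes of this machinery did not pass the test. Sel1l, the HRD1 adaptor, had an LPS effect of -0.33, Herpud1, a membrane organiser of the same complex, -0.14, and Edem1, which selects glycoproteins for removal, 0.35. The Edem1 probe sets disagreed. The brightest gave LPS differences of 0.14 in Jmjd3-/- and 0.56 in wild type, and the dimmer one 0.05 and -0.52.

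Eif2ak3, the gene of PERK, was the member with the largest LPS effect. It read 5.35 with LPS and 7.30 unstimulated in Jmjd3-/-, and 5.65 with LPS and 7.85 unstimulated in wild type. Both LPS arrays lay below the floor and both unstimulated arrays above it. The effect was -2.08 ± 0.23 (SE, limma adjusted p = 0.00778), and its size rests on near-background readings with LPS. The gene passed the floor only through the group in which it was high. Its other probe sets lay below the floor on all arrays, so the fall rests on a single probe set.

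Dnajc3 encodes p58IPK, an ER cochaperone and inhibitor of PERK, and carries an ER stress element. It read 9.17 with LPS and 9.95 unstimulated in Jmjd3-/-, and 9.34 with LPS and 10.46 unstimulated in wild type. The LPS arrays were the lower pair, with an effect of -0.95 ± 0.19 (SE, limma adjusted p = 0.0255). Its probe sets disagreed on size. The dimmer ones gave differences of -0.15 to -0.54 in Jmjd3-/- and -0.21 to -1.47 in wild type.

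Hsph1 encodes Hsp110, a nucleotide exchange factor of Hsp70. It read 11.19 with LPS and 11.76 unstimulated in Jmjd3-/-, and 11.88 with LPS and 12.34 unstimulated in wild type. Within each genotype the LPS array was lower, and the LPS effect was -0.51 ± 0.12 (SE, limma adjusted p = 0.0353). Its dimmer probe set gave LPS differences of only -0.15 in Jmjd3-/- and -0.14 in wild type. The call held in 5 of 10 alternative settings.

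Hspe1 encodes the mitochondrial cochaperonin Hsp10. It read 11.37 with LPS and 11.82 unstimulated in Jmjd3-/-, and 11.54 with LPS and 12.03 unstimulated in wild type. The LPS arrays were the lower pair, with an effect of -0.47 ± 0.12 (SE, limma adjusted p = 0.0434), a call that held in 3 of 10 alternative settings. Hspd1, its partner chaperonin Hsp60 on the shared promoter shown above, had an LPS effect of -0.46 and Hspa9, the mitochondrial Hsp70, of -0.35, neither past the test. All 3 mitochondrial genes had negative LPS differences in each genotype, as did 65.0% of all genes in Jmjd3-/- and 62.3% in wild type.

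The inducible cytosolic Hsp70 genes did not pass the test for LPS. Hspa1b had an effect of 0.35 (limma adjusted p = 0.13) and Hspa1a of 0.26 (limma adjusted p = 0.42), and as near-identical copies the pair may share signal. The other cytosolic members that did not pass lay between -0.31 and 0.21. They were Hspa4 (an Hsp110 relative), Hspa8 (the constitutive Hsp70), Hsp90aa1 (the inducible Hsp90), Hspb1 and Cryab (small heat shock proteins), Dnajb1 and Dnajb4 (Hsp40 cochaperones) and Bag3 (an Hsp70 exchange factor of selective autophagy). Hspa8 had levels of only 13.00 to 13.06 over the 4 arrays.

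Among the ER chaperones, Hspa5, which encodes BiP, had an LPS effect of 0.36 (limma adjusted p = 0.0623). The LPS effects of the other ER members that did not pass lay between -0.42 and 0.35. They were Hsp90b1 (the ER Hsp90), Hyou1 (the ER Hsp110), Dnajb9 (an ER Hsp40), Sdf2l1 (a BiP partner), Calr and Canx (lectin chaperones) and Pdia3, Pdia4 and Pdia6 (disulfide isomerases). Of the sensors and factors, Ern1 had an LPS effect of -0.58, Atf6 0.26, Xbp1 -0.05 and Atf4 -0.17. The Atf6 probe sets disagreed in sign. The brightest gave LPS differences of 0.25 in Jmjd3-/- and 0.27 in wild type. The second brightest, past the floor on all 4 arrays, gave -0.83 and -0.63, and the dimmest 0.20 and 0.07. Whole-gene probe sets do not report the splicing of Xbp1 or the translation of Atf4. Of the Atf4 targets, Ddit3 (the transcription factor CHOP) had -0.56, Trib3 (a pseudokinase) -0.83 and Asns (asparagine synthetase) 0.11.

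Related genes outside the list were read in the same limma fit, in which 45% of all genes had an unadjusted p below 0.05 for LPS. Their shares stand beside the background of 11.2% higher and 18.9% lower. Of 24 other cytosolic chaperones and cochaperones, 3 rose with LPS (12.5%) and 0 fell. They were Dnaja2 (1.11), an Hsp40 like Dnaja1, Stip1 (0.72), which links Hsp70 to Hsp90, and Cct3 (0.56), a subunit of the TRiC chaperonin. At an unadjusted p below 0.05, 6 of the 24 passed (25.0%). Of 26 other ER folding and degradation genes, 0 rose and 5 fell (19.2%, close to the background), with 8 at an unadjusted p below 0.05 (30.8%). The falls included the ER oxidase Ero1b (-0.93), Derl1 of ER-associated degradation (-0.87), the signal peptidase subunit Sec11c (-0.79) and the disulfide isomerase P4hb (-0.53). At an unadjusted p below 0.05, 10 of 25 other integrated stress response genes passed (40.0%). Of these 25 genes, 6 rose (24%) and 1 fell (4.00%). Those with the largest effects were the interferon-induced eIF2 kinase Eif2ak2 (2.85), the cystine transporter Slc7a11 (2.24), Nupr1 (1.52) and the tryptophanyl-tRNA synthetase gene Wars1 (1.22). Eif2ak4, the amino acid sensor GCN2, fell (-1.02).

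The LPS differences were then read within each genotype, where 2 arrays give no test and 2-fold was used as the limit. In Jmjd3-/- 3 of 39 genes were at least 2-fold higher with LPS (Pdia4, Ppp1r15a and Dnaja1), where 11.0% of all genes were, and 2 were lower (Eif2ak3 and Trib3), where 15.5% of all genes were. In wild type 1 of 36 was higher (Ppp1r15a), against a background of 9.86%, and 2 were lower (Eif2ak3 and Dnajc3), against 14.3%. Syvn1 lay just under the limit in Jmjd3-/-, with a fold of 1.996.

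**Figure D2:**
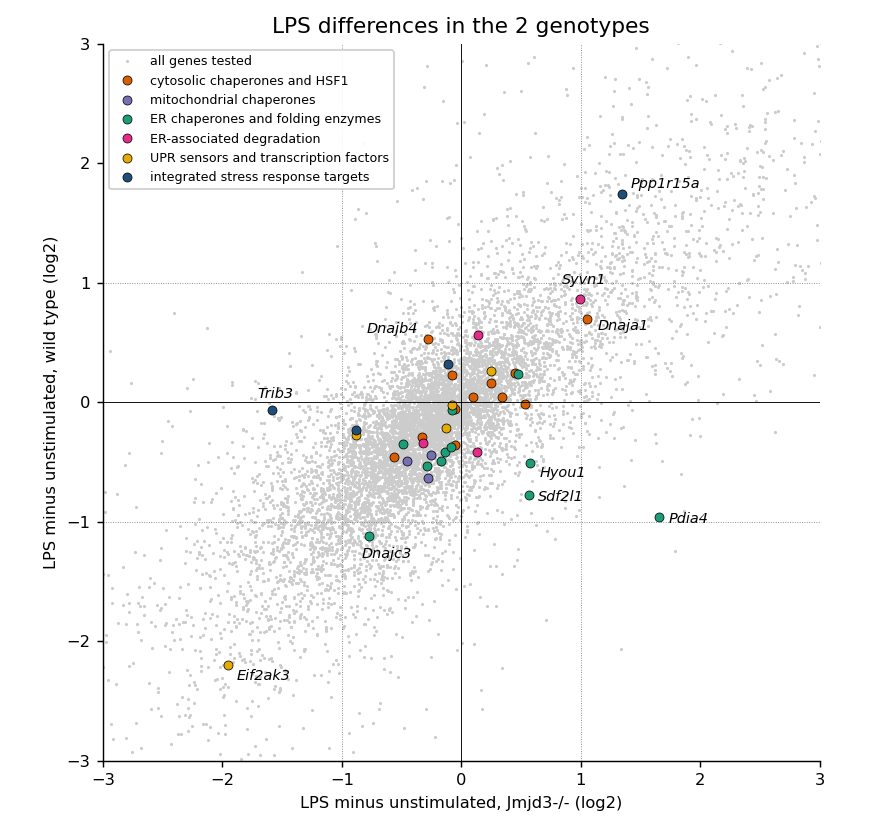
LPS minus unstimulated differences (log2), with Jmjd3-/- on the horizontal and wild type on the vertical axis. Grey points are all genes tested that lie within 3 on both axes, coloured points are the members by role, and dotted lines mark 2-fold. Pdia4, Sdf2l1 and Hyou1 lie in the lower right quadrant, with positive differences in Jmjd3-/- and negative ones in wild type.

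The LPS difference had opposite signs in the genotypes for 4 of 36 genes past the floor in both, with each side larger than the typical spread between probe sets of a gene (0.23 in Jmjd3-/- and 0.22 in wild type). Over all genes this held for 3.77%. The 4 genes were Pdia4, Sdf2l1, Hyou1 and Dnajb4, and 3 of them are ER folding genes. The difference between the genotypes in LPS response could not be tested with 1 array per group.

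Pdia4, a disulfide isomerase of the ER, read 9.80 with LPS and 8.14 unstimulated in Jmjd3-/-, and 9.97 with LPS and 10.93 unstimulated in wild type. The unstimulated Jmjd3-/- array alone was low. The LPS difference was 1.66 in Jmjd3-/- and -0.96 in wild type. Its other probe set stayed below the floor throughout, so the pattern rests on a single probe set.

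Sdf2l1 read 8.32 with LPS and 7.76 unstimulated in Jmjd3-/-, and 8.04 with LPS and 8.82 unstimulated in wild type. The unstimulated arrays were the lowest and the highest of the 4. The LPS difference was 0.57 in Jmjd3-/- and -0.78 in wild type, again from a single probe set.

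Hyou1 read 8.71 with LPS and 8.14 unstimulated in Jmjd3-/-, and 8.68 with LPS and 9.18 unstimulated in wild type. The LPS arrays were almost level, while the unstimulated arrays stood apart. Here a dimmer probe set was available, and it read 8.16 and 7.13 in Jmjd3-/- with LPS and unstimulated, against 8.18 and 8.47 in wild type. On both probe sets the unstimulated Jmjd3-/- array was lowest and the unstimulated wild-type array highest, with the LPS arrays nearly level between them.

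The group of ER chaperones and folding enzymes was also read together. In unstimulated cells 10 of the 11 genes of this group were lower in Jmjd3-/- than in wild type, with a median difference of -0.40, and Pdia6 was the exception. Over all genes 43.2% were lower. With LPS 5 were lower and 6 higher, with a median of 0.03, where 45.9% of all genes were lower. The lower levels were not particular to this group. Of all members, 27 of 39 were lower unstimulated and 18 of 37 with LPS. All 3 mitochondrial chaperones were lower in each state. Of 26 other ER folding and degradation genes, 18 were lower in each state, with medians of -0.18 unstimulated and -0.21 with LPS. Stated by genotype, LPS differences were negative for 7 of the 11 genes in Jmjd3-/- (median -0.09) and for 10 of 11 in wild type (median -0.49). Over all genes the negative shares were 65.0% in Jmjd3-/-, close to the 63.6% of this group, and 62.3% in wild type. These comparisons share arrays, so they are not separate observations. The medians over all genes were 0.07 unstimulated and 0.04 with LPS for genotype, and -0.26 in Jmjd3-/- and -0.19 in wild type for LPS. In the same unstimulated arrays 10 of 11 granulocyte markers were at least 2-fold higher in Jmjd3-/-, where 9.54% of all genes were. Mmp8 of that list was lower, by a difference of -2.43. The 9 stromal markers past the floor were all at least 2-fold higher, while Lum and Dcn lay below the floor on both arrays. On the unstimulated wild-type array only 3 of 11 granulocyte and 2 of 11 stromal markers reached the floor. The rest of those counted entered only through Jmjd3-/-, so the floor fixed their direction. Itgax and Ccr7 of dendritic cells were lower, by differences of -2.14 and -2.99. Ccr7 read 3.17 in unstimulated Jmjd3-/- and 6.17 in unstimulated wild type, just past the floor, so the size of its difference rests on a background reading. The part of these other cells in the ER differences was not tested.

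**Figure D3:**
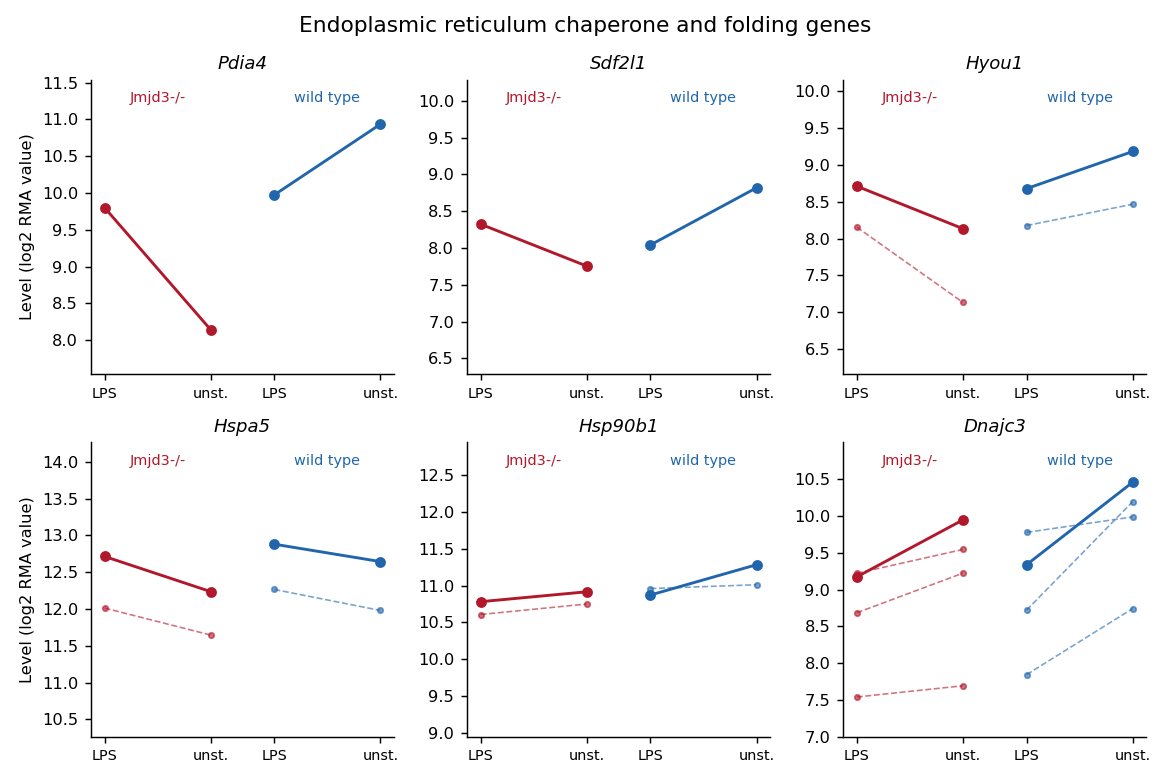
Levels (log2 RMA value) of 6 ER genes with LPS and unstimulated (unst.), Jmjd3-/- at left and wild type at right in each panel. Thick lines are the brightest probe set, thin dashed lines are other probe sets past the floor on at least 1 array, and every panel spans 4 log2 units. Pdia4, Sdf2l1 and Hyou1 are lowest in unstimulated Jmjd3-/- cells and highest in unstimulated wild-type cells.

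For genotype over both states, Hspb1 and Cryab were higher in Jmjd3-/- and Hsph1 was lower, out of 39 genes tested. The share higher was 5.13%, where 6.39% of all genes were higher, and the share lower was 2.56%, where 3.12% were lower. The median genotype effect was -0.09 over the 39 genes and 0.05 over all genes.

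Hspb1 encodes Hsp25, the mouse form of Hsp27, a small heat shock protein. It read 8.29 with LPS and 8.35 unstimulated in Jmjd3-/-, against 4.49 with LPS and 4.85 unstimulated in wild type. Both Jmjd3-/- arrays were above the floor and both wild-type arrays below it. The genotype effect was 3.65 ± 0.24 (SE, limma adjusted p = 0.00230). Set against the floor of log2 6 in place of the wild-type readings, the level was at least 4.90-fold higher in Jmjd3-/- with LPS and at least 5.09-fold higher unstimulated. The second probe set read 7.53 and 7.64 in Jmjd3-/- with LPS and unstimulated, against 3.68 and 4.59 in wild type.

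Cryab encodes alpha B-crystallin, a small heat shock protein best known from lens and muscle. It read 8.34 with LPS and 8.41 unstimulated in Jmjd3-/-, against 4.96 with LPS and 4.73 unstimulated in wild type. The split was the same as for Hspb1, with an effect of 3.53 ± 0.23 (SE, limma adjusted p = 0.00233). Against the floor the level was at least 5.05-fold higher in Jmjd3-/- with LPS and at least 5.33-fold higher unstimulated. A dimmer Cryab probe set read 6.82 and 6.89 in Jmjd3-/- with LPS and unstimulated, against 4.38 and 3.95 in wild type. Its genotype differences of 2.44 and 2.94 were smaller, and the third Cryab probe set was below the floor on all arrays. Both genes passed the floor only through the Jmjd3-/- arrays. Hspb8, the third small heat shock gene measured, was below the floor on all arrays.

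Markers of stromal cells moved with these genes. Of 10 stromal markers tested, 9 were higher in Jmjd3-/-, but 6 of the 10 lay below the floor on both wild-type arrays and so passed it only through Jmjd3-/-. With readings below the floor set to it, the median difference was at least 5.04. The summed linear level of the 11 matched markers was 22909 with LPS and 27483 unstimulated in Jmjd3-/-, against 726 with LPS and 560 unstimulated in wild type. Lum, a defining matrix gene of stromal cells, was below the floor on all 4 arrays. Granulocyte markers also moved, with 9 of 11 higher and Mmp8 lower in Jmjd3-/-. Over all genes 6.39% were higher and 3.12% lower. Of the 11 granulocyte markers, 5 lay below the floor on both wild-type arrays and so passed it only through Jmjd3-/-. With readings below the floor set to it, the median difference of the 11 was 3.37. Their sums were 38248 and 38035 in Jmjd3-/- with LPS and unstimulated, against 4769 and 3468 in wild type. Of the dendritic cell markers, Itgax and Ccr7 were lower in Jmjd3-/-, with genotype effects of -2.25 and -2.69. The size for Ccr7 rests partly on its unstimulated Jmjd3-/- reading of 3.17, below the floor. The summed macrophage markers lay between 33418 and 36541 on all arrays, a sum set mainly by the brightest genes. Among them Fcgr1 was higher in Jmjd3-/- (0.76) and Itgam lower (-1.04), while Mertk did not pass, with single-array differences of -1.09 with LPS and -0.44 unstimulated. The part of these other cells in the levels of Hspb1 and Cryab was not tested. In such bulk samples a changed number of cells of a type and a changed amount of RNA per cell cannot be told apart.

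The collagen folding genes, which serve secretory cells of connective tissue, showed the same direction. Of 9 tested, 6 were higher in Jmjd3-/- (66.7%, where 6.39% of all genes were) and 0 lower (3.12% of all genes), with 7 at an unadjusted p below 0.05 (24.4% of all genes). Of these 9 genes, 3 lay below the floor on both wild-type arrays and so passed it only through Jmjd3-/-. With readings below the floor set to it, the median difference was 1.27. Serpinh1, the collagen chaperone Hsp47 and itself heat-inducible, read 10.52 with LPS and 10.51 unstimulated in Jmjd3-/-, against 4.68 with LPS and 4.43 unstimulated in wild type. Its genotype effect was 5.96 (limma adjusted p = 0.00131). Since it passed the floor only through the Jmjd3-/- arrays, that size rests on background readings. Against the floor it was at least 23.0-fold higher in Jmjd3-/- with LPS and at least 22.8-fold higher unstimulated. The collagen prolyl hydroxylase subunit P4ha2, the ER isomerase Fkbp7 and the lysyl hydroxylase Plod2 were also higher. P4ha2 and Plod2 were below the floor on both wild-type arrays and Fkbp7 on that with LPS. With LPS and unstimulated, the bounds were at least 4.22-fold and 3.29-fold for P4ha2, and 3.38-fold and 1.72-fold for Plod2. For Fkbp7 the bound with LPS was at least 6.83-fold, and the measured fold unstimulated was 8.29. With LPS, P4ha1 rose in this list (0.77) and 0 fell.

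**Figure D4:**
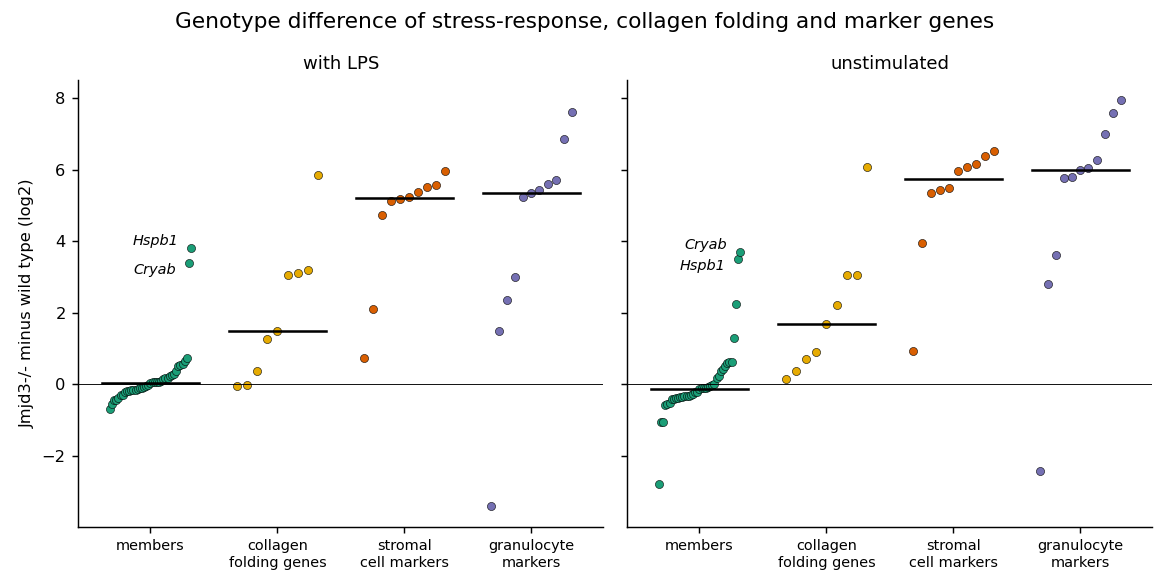
Jmjd3-/- minus wild type differences (log2), with LPS at left and unstimulated at right, for 39 members, 9 collagen folding genes, 10 stromal markers and 11 granulocyte markers. Points are genes sorted by value and bars are medians. Most members lie within 1 of zero, Hspb1 and Cryab lie between 3.38 and 3.80, and most marker genes lie above 5.

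Hsph1 was lower in Jmjd3-/- by both states together, with a genotype effect of -0.63 ± 0.12 (SE, limma adjusted p = 0.0409). Its levels given above show each Jmjd3-/- array below the wild-type array of the same state, while the unstimulated Jmjd3-/- level of 11.76 and the wild-type level with LPS of 11.88 were close. The dimmer probe set read 7.51 and 7.66 in Jmjd3-/- with LPS and unstimulated, against 8.52 and 8.66 in wild type, with no overlap. The genotype call held in 3 of 10 alternative settings.

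By single arrays with LPS, Hspb1 and Cryab were the 2 of 37 genes at least 2-fold higher in Jmjd3-/-, where 9.76% of all genes were, and 0 were lower, where 5.65% were. In unstimulated cells 4 of 39 were higher (Hspb1, Cryab, Trib3 and Ddit3), against a background of 9.54%. Lower were 3 (Pdia4, Sdf2l1 and Hyou1), against 5.74%. Of the ER genes, Pdia4 was 6.93-fold, Sdf2l1 2.09-fold and Hyou1 2.07-fold higher in unstimulated wild type than in unstimulated Jmjd3-/-.

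Ddit3 and Trib3 are targets of Atf4 in the integrated stress response. Ddit3 read 8.67 with LPS and 9.55 unstimulated in Jmjd3-/-, against 8.02 with LPS and 8.26 unstimulated in wild type. Both Jmjd3-/- arrays were above both wild-type arrays, and the unstimulated one was highest. The genotype effect of 0.97 ± 0.23 did not pass (SE, limma adjusted p = 0.0771). The dimmer Ddit3 probe set had genotype differences of only -0.04 with LPS and -0.19 unstimulated, so the 2 probe sets did not agree.

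Trib3 read 4.94 with LPS and 6.53 unstimulated in Jmjd3-/-, against 4.21 with LPS and 4.28 unstimulated in wild type. It passed the floor on the unstimulated Jmjd3-/- array alone, and its genotype effect of 1.49 ± 0.54 did not pass (SE, limma adjusted p = 0.183). Its second probe set was below the floor on all arrays. Atf4 itself had a genotype effect of 0.46 (limma adjusted p = 0.136), Asns 0.39 and Ppp1r15a -0.25. Below the floor, Chac1 read 5.34 and 4.60 in Jmjd3-/- with LPS and unstimulated, against 3.88 and 3.42 in wild type.

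The remaining members did not pass for genotype, with effects between -1.48 for Pdia4 and 0.58 for Atf6. The effect of Pdia4 had a standard error of 0.62 (limma adjusted p = 0.23), since its genotype difference was -2.79 unstimulated and -0.17 with LPS. At an unadjusted p below 0.05, 9 of the 39 members (23.1%) passed for genotype and 9 for LPS, where 24.4% of all genes did for genotype and 45% for LPS.

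Among related genes, 0 of 24 other cytosolic chaperones passed for genotype, with 7 at an unadjusted p below 0.05 (29.2%, against 24.4% of all genes). Of 26 other ER genes, 9 had an unadjusted p below 0.05 (34.6%). The disulfide isomerase Pdia5 was higher in Jmjd3-/- (3.85% of the list, against 6.39% of all genes). Wfs1, the ER membrane protein wolframin, was lower (-2.02, 3.85% of the list, against 3.12% of all genes). Pdia5 passed the floor only through the Jmjd3-/- arrays, and against the floor it was at least 1.61-fold higher with LPS and 1.58-fold unstimulated. Of 25 other integrated stress response genes, 11 had an unadjusted p below 0.05 (44.0%). Of these 25 genes, 4 were higher (16.0%, against 6.39% of all genes) and 1 was lower (4.00%, against 3.12%). The higher ones were Vldlr (3.03, below the floor on the unstimulated wild-type array), a lipoprotein receptor, Ddit4 (1.66), an inhibitor of mTORC1, Nupr1 (1.55) and the transcription factor Atf5 (1.16). Slc7a11 read 8.75 with LPS and 6.04 unstimulated in Jmjd3-/-, against 11.70 with LPS and 9.92 unstimulated in wild type. It was thus lower in Jmjd3-/- in both states and rose with LPS over both genotypes, with a genotype effect of -3.41 (limma adjusted p = 0.00416).

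Several differences depended on which probe set of a gene was read. In Jmjd3-/- 4 members were 2-fold apart with LPS only on a dimmer probe set (Hspa1b, Hspa4, Hyou1 and Syvn1), and in wild type 2 were (Ddit3 and Hspa4). A dimmer Hspa4 probe set read 8.46 with LPS and 9.44 unstimulated in Jmjd3-/-, and 8.11 with LPS and 9.72 unstimulated in wild type. Its brightest gave differences of -0.33 in Jmjd3-/- and -0.29 in wild type, which are smaller and of the same sign. A dimmer Hspa1b probe set read 8.68 with LPS and 7.26 unstimulated in Jmjd3-/-, and 8.35 with LPS and 7.59 unstimulated in wild type, with the LPS arrays highest. For genotype the members concerned were Hsph1 with LPS, and Atf6, Canx, Dnajc3 and Hsph1 unstimulated. The 2 dimmer probe sets of Canx disagreed. One read 8.88 and 7.93 in Jmjd3-/- with LPS and unstimulated, against 9.12 and 9.27 in wild type, with unstimulated Jmjd3-/- lowest. The other read 7.73 and 8.19 in Jmjd3-/-, against 7.41 and 8.14 in wild type, with the LPS arrays lowest. All probe sets of a gene had the same sign of LPS difference for 21 of 28 members in Jmjd3-/- and 23 of 26 in wild type. For genotype these counts were 22 of 27 with LPS and 22 of 28 unstimulated.

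**Figure D5:**
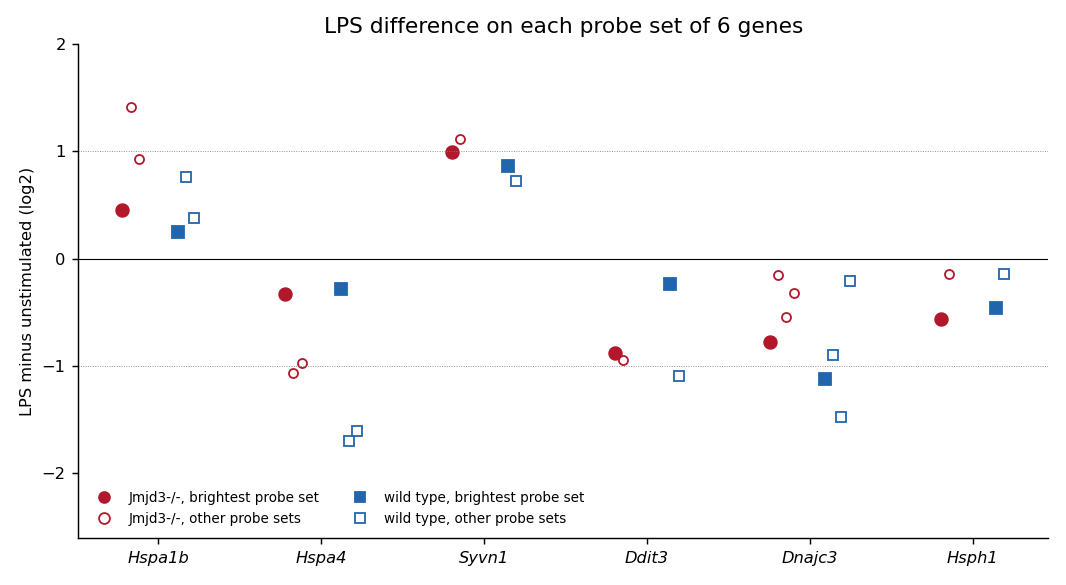
LPS minus unstimulated difference (log2) on each probe set past the floor on at least 1 array, for 6 genes. Circles are Jmjd3-/- and squares are wild type, filled for the brightest probe set and open for the others, and dotted lines mark 2-fold. Hspa4 shows -0.33 in Jmjd3-/- and -0.29 in wild type on its brightest probe set and -0.98 to -1.70 on the others.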

How the data were processed

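Expression was measured in 4 samples, 1 Affymetrix array per group. The deposited values are log2 intensities per probe set, made by the authors with RMA per the submitters' processing notes, with version and co-processed arrays not given in the sources used here. RNA came from a Trizol extraction and was labelled as biotin cRNA by the NuGEN Ovation system, per the labels' protocols. RMA compresses differences near background, and array number limits the precision. Of 45101 probe sets, 34958 named 1 gene in the platform annotation, 932 named several and 9211 named none here. Symbols were updated through RefSeq GRCm38.p6 for 34754 and kept for 204. The brightest probe set stood for each of 18194 genes.

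The 9386 genes at or above log2 6 on at least 1 array were fitted in limma 3.58.1 (R 4.3.3) with genotype and LPS as additive effects and an intensity trend, with 1 residual and 3.84 prior degrees of freedom. A call needed an adjusted p (Benjamini-Hochberg) below 0.05. Unadjusted, 4221 genes lay below 0.05 for LPS and 2288 for genotype. Nothing says whether the arrays came from separate cultures or animals. Single-array differences were counted from 2-fold on, among genes at the floor on the higher array. Tables and figures used Python 3.11.15.

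The members, gene lists, markers and motifs were chosen with earlier results of these data known. Every member is named, and its value on each array is given where it was called or 2-fold apart. From each related list up to 4 called genes with the largest effect are named. Alternatives varied the floor, probe set, scaling, trend, model, fold limit and an added constant of 64.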

Additional observations from a re-analysis of the deposited data

Results flagged for a closer look

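The LPS difference had opposite signs in the 2 genotypes for 4 members, each side above the spread between probe sets, and the difference between the genotypes was not tested. The LPS difference in Jmjd3-/- minus that in wild type was 2.62 for Pdia4, 1.35 for Sdf2l1, 1.08 for Hyou1 and -0.81 for Dnajb4. The first 3 are ER folding genes. Dnajb4, a cytosolic Hsp40, read 8.49 with LPS and 8.78 unstimulated in Jmjd3-/-, and 8.68 with LPS and 8.15 unstimulated in wild type. Its dimmer probe set past the floor had LPS differences of -0.14 in Jmjd3-/- and 0.66 in wild type.

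The genotype difference had opposite signs with LPS and unstimulated for Dnajb4, Sdf2l1 and Herpud1, which was also not tested. For Herpud1 the genotype difference with LPS minus that in unstimulated cells was 0.55, from 0.23 with LPS and -0.32 unstimulated. Its second probe set gave 0.36 with LPS and -0.33 unstimulated. Over all genes, 761 of 8291 had such opposite genotype differences, and 3 of 37 members did.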

How the results depend on the processing

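Neither the called members nor the 5 opposite differences changed direction under the alternatives run for them. The genotype difference of Ddit3, which was not called, was negative on its second probe set (-0.04 with LPS and -0.19 unstimulated). Hspb1 and Cryab were called in all 10 alternatives for genotype, with effects of 3.45 to 3.65 for Hspb1 and 2.18 to 3.53 for Cryab. Changes of floor, trend and model left these effect sizes as they were. Ppp1r15a and Sdf2l1 have 1 probe set each, so the choice of probe set could not change their values. For Eif2ak3 and Pdia4 no second probe set reached the floor. The alternative of second brightest probe sets therefore read their brightest again. The alternatives are therefore not independent checks. For LPS, Ppp1r15a was called in 9 of 10, Dnaja1 and Syvn1 in 8 of 10, Dnajc3 in 7 of 10, Eif2ak3 in 7 of the 8 that kept it, Hsph1 in 5 of 10 and Hspe1 in 3 of 10. The genotype call of Hsph1 held in 3 of 10 (adjusted p 0.0314 to 0.889). Reading the second brightest probe set was an alternative chosen after seeing the data.

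With LPS alone in the model, 0 members rose and 0 fell, against 3 and 4, and over all genes 183 rose and 84 fell. The members that fell numbered 2 with no floor and 2 without the intensity trend, in both cases Dnajc3 and Eif2ak3. With the mean of all probe sets 2 fell, Ddit3 and Hspa4, neither of which was a main call. With second brightest probe sets read where these reached the floor, and the brightest kept elsewhere, 4 fell. They were Atf6, Ddit3 and Hspa4 and, of the main calls, Eif2ak3. Eif2ak3 was read there on its brightest probe set again, since its others lay below the floor on all arrays. Atf6 was there also called higher in Jmjd3-/-. The count lower in Jmjd3-/-, which is Hsph1 alone, was 0 with a floor of log2 8, with no floor, with a floor on the mean, with the mean of probe sets, without the less specific probe set classes, without the trend and with genotype alone in the model.

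For 2-fold differences with LPS in Jmjd3-/-, 5 were higher without the less specific classes and 5 on second probe sets, against 3. Lower were 0 with the floor of log2 8 and 0 with the mean of probe sets, 5 at 1.5-fold, 1 with 64 added and 1 without those classes, against 2. In wild type, 3 were higher at 1.5-fold, against 1. Lower were 1 with the floor of log2 8, 1 with the mean of probe sets and 5 at 1.5-fold, against 2. For genotype with LPS, 1 was lower at 1.5-fold and 1 on second probe sets, against 0. Unstimulated, 7 were higher at 1.5-fold and 2 with the mean of probe sets, against 4, and 1 was lower with 64 added and 5 on second probe sets, against 3. By construction the models with 1 factor leave the differences of the other factor in the error, and for the other changes the cause was not tested. No paired analysis was possible because each group has 1 array, and no array could be left out for the same reason. Signal near background limits Eif2ak3, Trib3, Hspb1 and Cryab.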
